A study of Pinus pinaster with 12 samples.

Results

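RNA recovered with an antibody to N6-methyladenosine (m6A) was compared between roots of maritime pine (Pinus pinaster) seedlings given ammonium and roots of seedlings given water. The comparison used 6 of the 12 libraries of the series, taken by their titles as the immunoprecipitate (IP) of the ammonium group (replicates 1 to 3) and the IP of the water group (replicates 1 to 3). All 253670 transcript IDs of the deposited table were considered; 212529 had at least 1 read in these 6 libraries and 99846 passed the expression filter and were tested. The ammonium seedlings, aged 1 month, were irrigated with 80 mL of 3 mM ammonium chloride and the water seedlings with 80 mL of water, in both cases after 3 days of acclimation, and whole roots were frozen 24 h later. All seedlings were of the Segura-Alcaraz provenance, and the labels describe 3 independent runs of the experiment. The other 6 libraries, fragmented RNA that was not precipitated (input), are used below only as a scale for the IP. In whole roots, fewer cells of a type and less RNA per cell cannot be told apart.

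m6A is a methylated base that plant cells place on messenger RNA, mostly towards the end of the transcript, through a writer complex; eraser enzymes remove it and reader proteins bind it. It is known to bear on the stability, processing and translation of the RNA that carries it. Ammonium is a nitrogen source that conifer roots take up readily and assimilate through glutamine synthetase. The level of a transcript in an IP depends both on how abundant the RNA is and on how much of it the antibody retains, so a difference in IP level is not by itself a difference in methylation. The deposited files carry transcript IDs only, without gene names, so no gene list or root marker could be checked; transcripts are described by their level, their listed m6A peak and their ratio of IP to input.

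The IP totals lay between 65539363 and 73185176 counts for the ammonium group and between 57945305 and 63522543 for the water group, so the ammonium libraries were deeper. On the share of counts taken by classes of transcripts, the water libraries were spread more widely than the ammonium libraries. Transcripts were put in an IP-low class when their mean level over the 6 IP libraries was at least 4-fold below that over the 6 inputs (49303 transcripts), and in an IP-high class when it was at least 4-fold above (36210 transcripts). IP-low transcripts took 2.76%, 2.99% and 2.75% of the counts of ammonium IP replicates 1, 2 and 3, against 8.58%, 2.51% and 4.11% in water IP replicates 1, 2 and 3. The same class took 48.0% to 49.1% of the counts of the 6 inputs. IP-high transcripts took 43.8%, 44.0% and 44.7% in the ammonium IP, against 38.8%, 48.6% and 43.7% in the water IP, where the inputs held 4.93% to 5.19%. Replicate 1 of the water IP thus lay nearer to the inputs than the 5 others on both shares, and replicate 2 of the water IP lay farthest from them. Log2 levels of water IP replicate 1 correlated with those of the inputs at a mean r of 0.738, against 0.485 and 0.628 for water IP replicates 2 and 3 and 0.589 to 0.611 for the ammonium IP (99846 transcripts, which are not independent replicates).

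**Figure D1:**
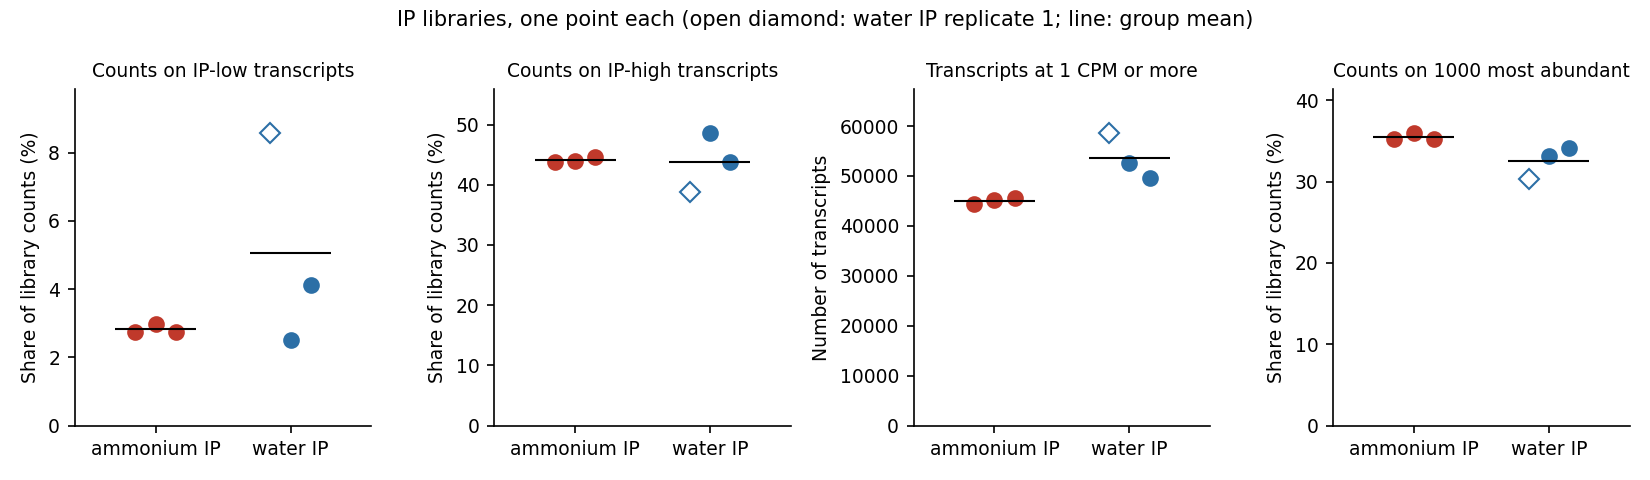
Measures of each IP library, with the ammonium IP left of the water IP; each point is 1 library, the open diamond is water IP replicate 1 and the line is the group mean. The y axes give a share of library counts in percent or a number of transcripts. The ammonium points lie close together (2.75% to 2.99% of counts on IP-low transcripts), while the water points spread from 2.51% to 8.58%.

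The ammonium IP had fewer transcripts at 1 CPM or more (counts per 1000000 counts of the library) than the water IP. There were 44321, 45180 and 45566 such transcripts in ammonium replicates 1, 2 and 3 and 58628, 52595 and 49644 in water replicates 1, 2 and 3. The groups did not overlap, also without water replicate 1. The means were 45022 ± 637 and 53622 ± 4579 (SD, n = 3 each), and the difference had a two-sided p = 0.1 by exact permutation, below which a design of 3 against 3 cannot go. The 100 most abundant transcripts of each library took 10.5% ± 0.293 of the ammonium IP counts and 9.70% ± 0.723 of the water IP counts (SD, n = 3 each; p = 0.2 in the same exact test), and the ranges overlapped. The difference was 0.769 percentage points, but 0.389 without water replicate 1. The 1000 most abundant took 35.5% ± 0.415 and 32.5% ± 1.98 in the ammonium and water IP (SD, n = 3 each; p = 0.1 in the exact test), a difference of 3.01 percentage points with all 6 libraries and 1.90 without water replicate 1. At 100 CPM or more there were 1959, 1892 and 1906 transcripts in the ammonium IP against 1723, 1804 and 1831 in the water IP, again without overlap. The ammonium IP thus held more transcripts at high level and fewer above 1 CPM.

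For the 15405 tested transcripts with a mean of 10 CPM or more, spreads and distances were taken on log2 levels after trimmed mean of M-values (TMM) scaling. The median SD was 0.18 within the ammonium IP and 0.27 within the water IP. Of the water libraries, replicate 1 lay farthest from the group's median at 44.0% of these transcripts, replicate 2 at 31.4% and replicate 3 at 24.6%; of the ammonium libraries, replicates 1, 2 and 3 did so at 38.3%, 39.0% and 22.8%. On that scale water replicate 1 was mostly the low one. It was farthest and below at 36.6% of the transcripts and farthest and above at 7.37%. The scaling divides levels by a factor, which was 1.18, 1.04 and 1.03 for water replicates 1, 2 and 3. By library totals, transcripts of 10 to 100 CPM took 41.0% of the counts of water replicate 1 and 41.0% in the water mean. Those of 100 CPM or more took 39.3%, against a water mean of 42.3%. The median absolute log2 difference between libraries was 0.36 and 0.33 for water replicate 1 against water replicates 2 and 3, 0.25 between these, and 0.19 to 0.26 between ammonium libraries.

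With all 6 IP libraries, no transcript passed for ammonium against water in edgeR's quasi-likelihood test at a Benjamini-Hochberg adjusted p under 0.05 (0 of 99846 tested, background 0%). The smallest adjusted p in edgeR was 0.0717. There were 10431 transcripts (10.4%) at an unadjusted p under 0.05, of which 5244 (5.25%) were higher in the ammonium IP and 5187 (5.2%) lower. That even split depends on the scaling. With trimmed mean of M-values (TMM) scaling the median log2 fold change of all tested transcripts was -0.23, and with scaling to library size it was -0.45; 1701 transcripts then had a positive and 9903 a negative change at an unadjusted p under 0.05. All fold changes below use TMM and should be set beside that median. The directions differed in size. At a fold of at least 2, 1580 transcripts (1.58%) were higher in the ammonium IP and 15432 (15.5%) lower. Most of these, 1313 higher and 11411 lower, had a mean IP level under 1 CPM, where the median standard error was 0.74. At 1 to 10 CPM 203 were higher and 3780 lower, at 10 to 100 CPM 57 and 241, and at 100 CPM or more 7 and 0. Of those at an unadjusted p under 0.05, 414 were at least 2-fold higher and 4611 at least 2-fold lower. Overlap was judged in CPM by library total and not with TMM, thus on the scale whose median was -0.45. On it the groups did not overlap at 15736 transcripts (15.8%), 4448 higher (4.45%) and 11288 lower (11.3%).

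Without water IP replicate 1, edgeR also called 0 of 106847 transcripts (0%), with a smallest adjusted p of 0.325. At an unadjusted p under 0.05 there were 8930 transcripts (8.36%), of which 3819 (3.57%) were higher in the ammonium IP and 5111 (4.78%) lower. With library size scaling, 1565 were higher and 8234 lower. At least 2-fold higher were 3476 transcripts (3.25%) and at least 2-fold lower 15664 (14.7%). Of these, 3115 higher and 12459 lower ones had a mean IP level under 1 CPM. In CPM by library total, groups of 3 and 2 libraries did not overlap at 27195 transcripts (25.5%), 8379 higher (7.84%) and 18816 lower (17.6%). There are 10 splits of 5 libraries into 3 and 2, against 20 splits of 6 into 3 and 3. Smaller groups lie apart more readily, so this share is not comparable with the 15.8% of all 6 libraries. Fewer transcripts thus reached an unadjusted p under 0.05 without this library, although the coefficient of biological variation was lower, at 0.441 against 0.481 with all 6 libraries.

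The other libraries moved the counts more than replicate 1 of the water IP did. The number at an unadjusted p under 0.05 was 20472 without water replicate 2 and 12882 without water replicate 3, and 6012, 7874 and 5933 without ammonium replicates 1, 2 and 3. Without water replicate 2, the library farthest from the inputs, 34 transcripts passed in edgeR, 3 higher and 31 lower, with a smallest adjusted p of 0.0271. Each of the other 5 omissions left 0 called. Once water replicate 1 had been left out, the further omission of water replicate 2 or 3 gave 141 or 2167 calls and 15168 or 19022 transcripts at an unadjusted p under 0.05. These fits had 1 water library, which was assumed to vary like the ammonium libraries. Further omission of ammonium replicate 1 or 3 left 4301 or 4686 at an unadjusted p under 0.05, and no call.

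**Figure D2:**
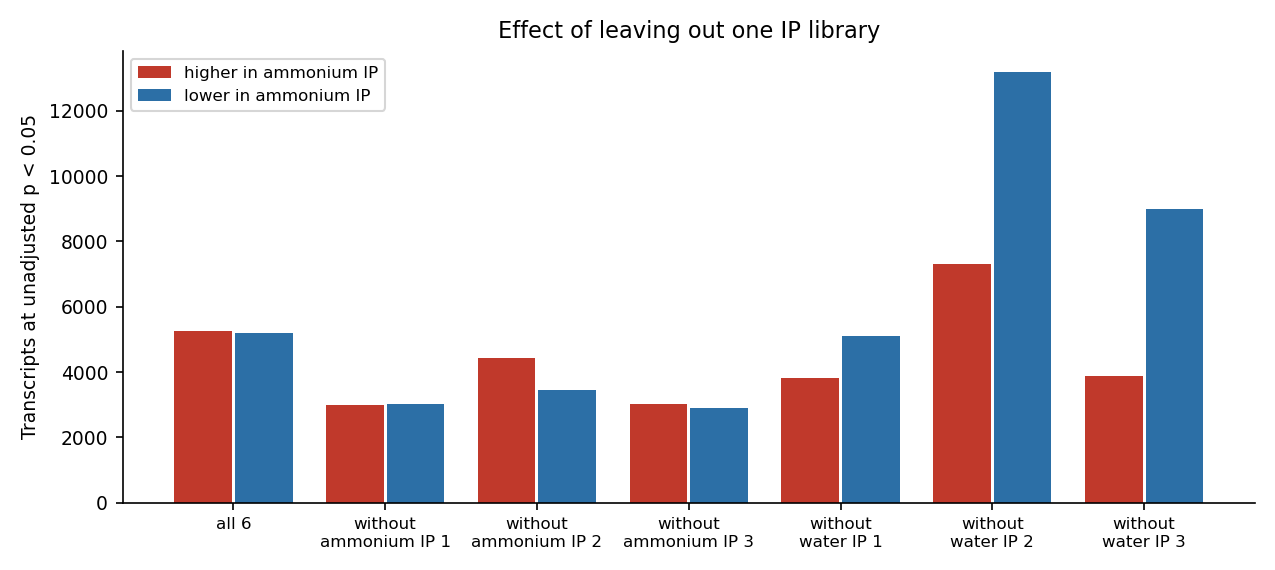
Number of transcripts at an unadjusted p under 0.05 with all 6 IP libraries and with 1 library left out (x axis), split into higher (left bar of each pair) and lower (right bar) in the ammonium IP. The highest total, 20472, came without water IP replicate 2, and the lowest, 5933, without ammonium IP replicate 3.

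DESeq2, which estimates the spread in another way, called 316 transcripts with all 6 libraries (0.573% of those given an adjusted p), 160 higher and 156 lower in the ammonium IP. Without water IP replicate 1 it called 151 (0.338%), 107 higher and 44 lower. The direction of these calls went with the mean IP level, which comes from the same libraries. At 100 CPM or more 14 were higher and 0 lower (0.760% of those given an adjusted p), and at 10 to 100 CPM 92 were higher and 36 lower (0.944%). At 1 to 10 CPM 52 were higher and 113 lower (0.475%), and under 1 CPM 2 were higher and 7 lower (0.179%). Without water replicate 1 the calls were 8 higher and 2 lower at 100 CPM or more (0.543%), 62 and 23 at 10 to 100 CPM (0.627%), and 37 and 19 at 1 to 10 CPM (0.191%), so the excess of lower calls in that last class was not there. No transcript under 1 CPM was given an adjusted p in this fit.

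The sign of the median ammonium change differed between classes of IP level. These classes were formed with the same IP libraries, so their values describe the libraries and are no test. In classes of mean IP level, the median log2 fold change was -0.45 under 1 CPM (49564 transcripts), -0.21 at 1 to 10 CPM (34877), 0.28 at 10 to 100 CPM (13562) and 0.36 at 100 CPM or more (1843), beside -0.23 over all tested transcripts. Without water IP replicate 1 the medians were -0.39, -0.11, 0.20 and 0.24 in the same order, beside -0.16 over all. At 1 to 10 CPM the median was -0.033 without water replicate 2 and -0.28 without water replicate 3. With library size scaling the medians of all 6 libraries were -0.68, -0.43, 0.060 and 0.14. The order of the classes was thus the same with and without replicate 1 and under both scalings, while the zero point was not.

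At 100 CPM or more, 721 transcripts were higher and 12 lower at an unadjusted p under 0.05, which is 39.8% of the class beside 10.4% of all tested. At 10 to 100 CPM 3395 were higher and 443 lower (28.3%), at 1 to 10 CPM 931 and 2347 (9.40%), and under 1 CPM 197 and 2385 (5.21%). Both classes under 10 CPM thus lay below the share of all tested. Without water replicate 1 the counts were 482 higher and 48 lower at 100 CPM or more (28.8%, beside 8.36% of all tested), 2150 and 671 at 10 to 100 CPM (20.8%), 745 and 2054 at 1 to 10 CPM (8.03%), and 442 and 2338 under 1 CPM (4.91%), the classes under 10 CPM again below that share. The precision differed as well, with a median standard error (SE) of 0.19 at 100 CPM or more and 0.74 under 1 CPM. A 2-fold difference was thus less than 2 SE for most transcripts under 1 CPM and mostly not detectable. The 197 higher and 2385 lower transcripts of that class with all 6 libraries were all at least 2-fold apart. Most changes of abundant transcripts were small: 7 of the 1843 were at least 2-fold higher and 0 at least 2-fold lower. The counts of the library shift with these levels, since transcripts of 100 CPM or more took 46.1% ± 0.460 of the ammonium IP counts and 42.3% ± 2.63 of the water IP counts, and those under 1 CPM took 2.06% ± 0.111 and 3.49% ± 0.949 (SD, n = 3 each; water replicate 1 at 39.3% and 4.47%).

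**Figure D3:**
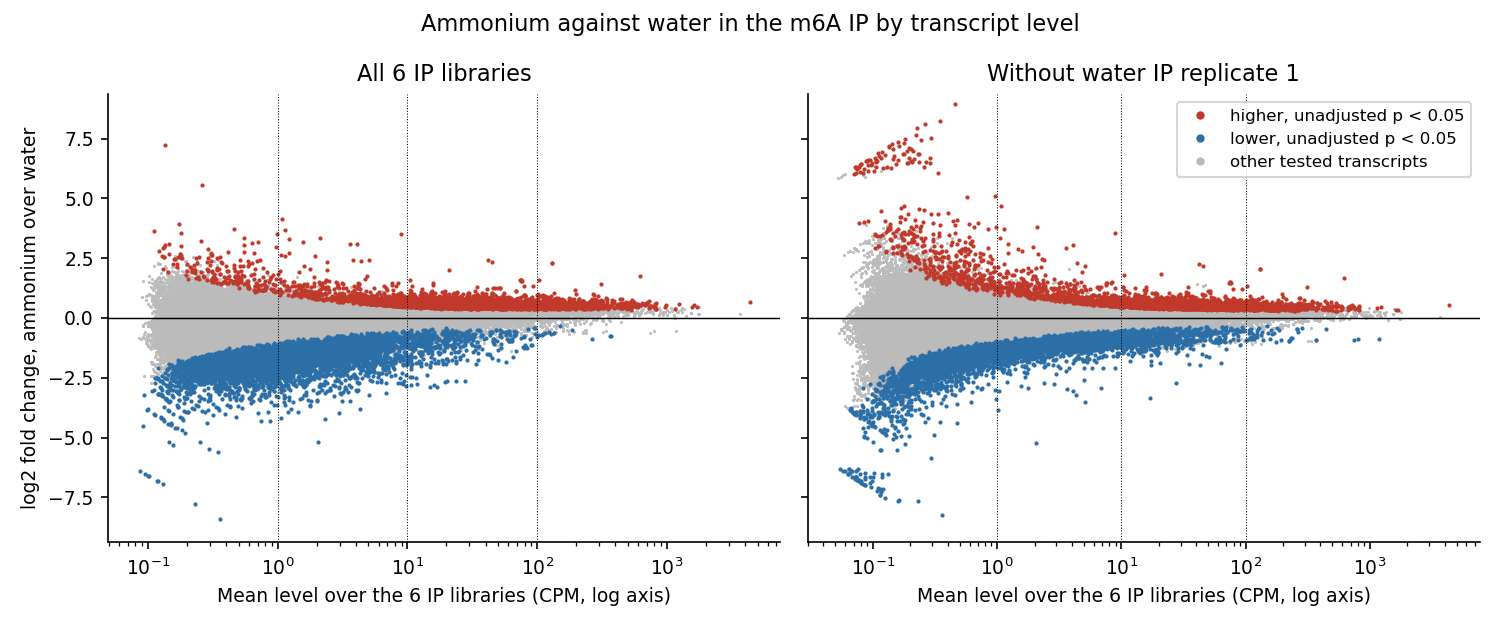
Log2 fold change of ammonium over water (y axis) against mean IP level in CPM (x axis, log scale) for every tested transcript, with all 6 IP libraries (left) and without water IP replicate 1 (right); dotted lines mark 1, 10 and 100 CPM. Transcripts at an unadjusted p under 0.05 are red when higher and blue when lower; above 10 CPM the red ones prevail (3395 against 443 at 10 to 100 CPM with 6 libraries), below 10 CPM the blue ones. Detached points at low level are mostly transcripts with 0 reads in 1 group, whose fitted fold has no fixed size.

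When the classes were formed on the input level instead, the class medians lay closer together with all 6 libraries. They were -0.35, -0.12, 0.0052 and -0.088 from the lowest to the highest class with all 6 libraries, and -0.51, 0.054, 0.14 and 0.095 without water replicate 1. The medians of the classes of 1 to 10 CPM and of 100 CPM or more thus differed in sign with and without this library. Of the 1449 transcripts at 100 CPM or more in the input, 225 were higher and 238 lower at an unadjusted p under 0.05 with 6 libraries (32.0%, beside 10.4% of all tested), and 207 and 86 without replicate 1 (20.2%, beside 8.36%).

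The IP-low and IP-high classes differed in which water library their values rested on. These classes were formed with the same IP libraries, so their values describe the libraries and are no test. The median log2 fold change of tested IP-low transcripts was -0.75 with all 6 libraries (18578 transcripts) and -0.10 without water IP replicate 1 (19187). At an unadjusted p under 0.05, 2517 IP-low transcripts were lower and 102 higher with all 6 libraries (14.1%, beside 10.4% of all tested), and 451 and 336 without replicate 1 (4.10%, beside 8.36%). The share of this class thus lay above that of all tested with replicate 1 and below it without. For IP-high transcripts the median was -0.35 with all 6 libraries (35127 transcripts), -0.57 without replicate 1 (35809) and 0.11 without water replicate 2. At an unadjusted p under 0.05, 1076 IP-high transcripts were lower and 1412 higher with all 6 libraries (7.08%, below the 10.4% of all tested), and 3385 and 818 without replicate 1 (11.7%, above the 8.36% of all tested). Transcripts between these classes had medians of 0.050 and 0.043 with and without replicate 1, though -0.073 without water replicate 3, -0.0014 without ammonium replicate 1 and -0.18 with library size scaling.

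Level and ratio class were not interchangeable. Among IP-low transcripts at 1 to 10 CPM the median was -0.68 with all 6 libraries (6749 transcripts; 1285 lower and 37 higher at an unadjusted p under 0.05, or 19.6% beside 10.4% of all tested) and -0.084 without water replicate 1 (200 lower and 122 higher, or 4.77% beside 8.36%). Among IP-high transcripts of the same level it was -0.38 and -0.60 (12188 transcripts). Of these, 403 were lower and 186 higher with all 6 libraries (4.83%, below that of all tested), and 1519 lower and 104 higher without replicate 1 (13.3%, above it). At 100 CPM or more, IP-high transcripts (962) had medians of 0.34 and 0.21 and those between the classes (879) 0.38 and 0.27, with and without replicate 1. The remaining 2 transcripts of that level were IP-low, with medians of -0.39 in each fit. At 10 to 100 CPM the medians were 0.24 and 0.12 for IP-high transcripts (3818) and 0.31 and 0.24 between the classes (9156), but -0.37 and -0.053 for IP-low transcripts (588), of which 24 were higher and 145 lower with all 6 libraries and 32 and 65 without replicate 1. Above 10 CPM the class medians were therefore positive for IP-high transcripts and those between the classes and negative for the few IP-low ones.

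**Figure D4:**
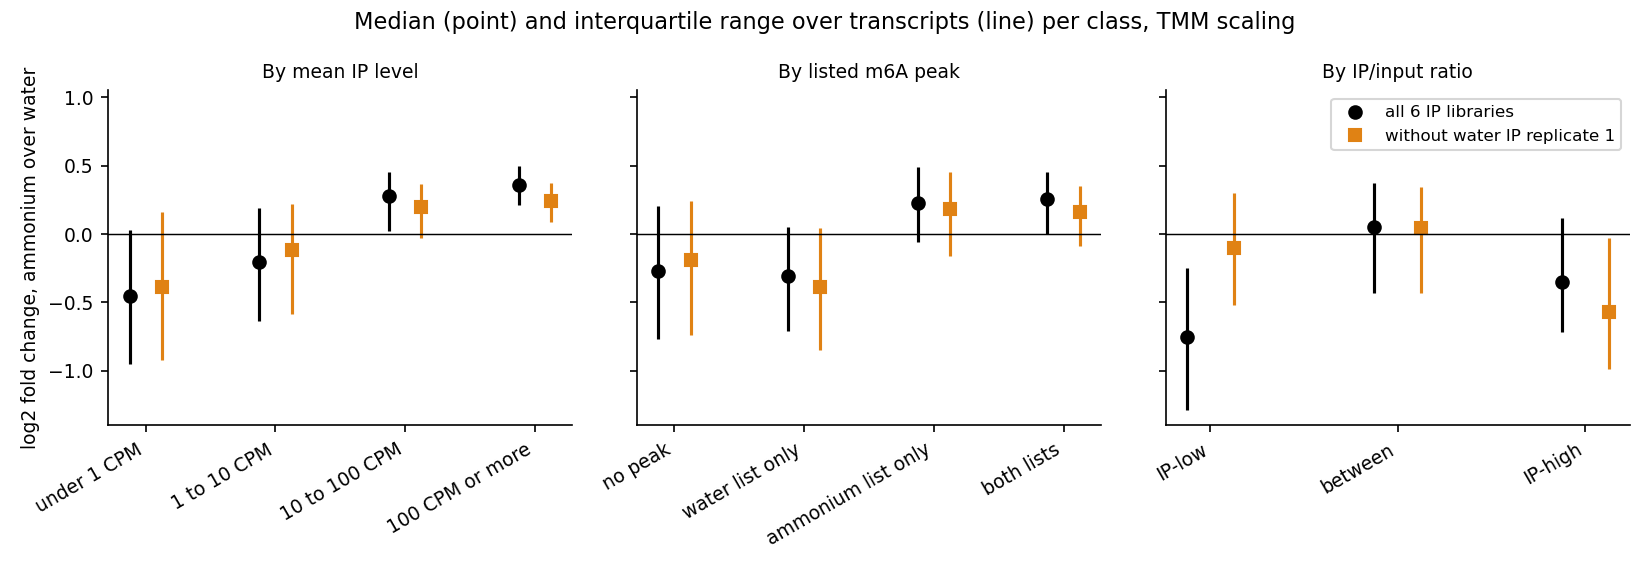
Median log2 fold change of ammonium over water (point) and interquartile range over transcripts (line) in classes of mean IP level, listed m6A peak and IP/input ratio, with all 6 IP libraries (black circles) and without water IP replicate 1 (orange squares). The medians run from -0.45 under 1 CPM to 0.36 at 100 CPM or more with 6 libraries, and the IP-low median is -0.75 with and -0.10 without replicate 1.

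Transcripts with an m6A peak in the authors' deposited lists were also followed. The lists were made from the libraries counted here, so these values describe them and test nothing. All 4966 transcripts with a peak in both lists were tested; their median log2 fold change was 0.26, and 0.16 without water IP replicate 1. At an unadjusted p under 0.05, 1078 were higher and 85 lower (23.4%, beside 10.4% of all tested), and without replicate 1 702 and 194 (18.0%, beside 8.36%). The 1108 tested of 1109 transcripts of the ammonium list only had a median of 0.22 with 6 libraries, and all 1109 one of 0.18 without replicate 1. The 1002 of the water list only had medians of -0.30 and -0.38, and -0.16 without water replicate 2. Transcripts without a peak had medians of -0.27 (92770 tested) and -0.19 (99770), but -0.10 without water replicate 2 and -0.44 without water replicate 3.

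Transcripts with peaks were more abundant, and from 10 CPM upwards the medians with a peak in both lists lay within 0.1 of those without a peak. The median IP level was 20.9 CPM for transcripts with a peak in both lists and 0.887 CPM for tested transcripts without a peak. At 10 to 100 CPM the median log2 fold change was 0.30 with a peak in both lists (2492) and 0.28 without a peak (10696), and at 100 CPM or more 0.38 (761) and 0.34 (1035). Without water replicate 1 these were 0.20 and 0.20, and 0.26 and 0.23. At 1 to 10 CPM they stood apart, at 0.076 with a peak in both lists (1634) and -0.23 without a peak (32000), and 0.0011 and -0.12 without replicate 1. In that same range transcripts of the ammonium list only had a median of 0.15 (651), and those of the water list only one of -0.33 (592). At 10 to 100 CPM these lists also stood apart, at 0.32 (201) and 0.070 (173), and at 0.26 and 0.043 without replicate 1. In DESeq2, 44 transcripts with a peak in both lists were called higher and 2 lower (0.933% of 4932, beside 0.573% over all), and 107 without a peak were called higher and 144 lower (0.519% of 48376). Without replicate 1 these were 28 and 7 with a peak in both lists (0.726% of 4824, beside 0.338% over all) and 71 and 32 without a peak (0.269% of 38352).

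Single transcripts are named by smallest p in each direction among those whose groups did not overlap, by level and by peak. None of them passed edgeR's test without a replicate block in either fit. The first in the higher direction, in both fits, was pp_163802. It had 57.6, 80.1 and 84.0 CPM in the ammonium IP, against 14.3, 14.97 and 20.5 CPM in the water IP, so every ammonium library lay far above every water library. Its log2 fold change was 2.35 (SE 0.23; edgeR adjusted p = 0.0717) and 2.19 (SE 0.23; edgeR adjusted p = 0.325) without water replicate 1. Its input level was 16.9, 28.6 and 27.3 CPM with ammonium against 8.05, 8.01 and 9.36 CPM with water, also without overlap. In the authors' deposited table for ammonium it had 1 peak, at positions 401 to 501 of the transcript with a fold enrichment of 5; the water list named none. Of the 17 tested IDs within 10 numbers of it, 5 had the same direction at an unadjusted p under 0.05, and such neighbours could share reads.

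The second was pp_80109, which was also first among transcripts of 100 CPM or more and among those with a peak in both lists. It had 358.8, 446 and 502 CPM in the ammonium IP, against 187.9, 208 and 176 CPM in the water IP. The groups were well apart, and water replicate 1 lay between the other water libraries. The log2 fold change was 1.40 (SE 0.18; edgeR adjusted p = 0.308) and 1.31 (SE 0.18; edgeR adjusted p = 0.590) without replicate 1. In the inputs it had 30.5, 56.3 and 51.6 CPM with ammonium against 21.7, 19.0 and 20.5 CPM with water. In the authors' deposited tables its peak lay at positions 1315 to 1655 in both lists, with a fold enrichment of 251 with ammonium and 410 with water. No tested ID within 10 numbers reached an unadjusted p under 0.05.

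In the lower direction pp_141822 came first in both fits. It had 0.448, 0.451 and 0.565 CPM in the ammonium IP, against 14.5, 6.61 and 3.35 CPM in the water IP. The ammonium libraries were nearly equal, the water libraries spread over a wide range with replicate 1 on top, and the groups did not overlap. The log2 fold change was -3.80 (SE 0.50; edgeR adjusted p = 0.308) and -3.22 (SE 0.41; edgeR adjusted p = 0.590) without replicate 1. Its input level was 2.43, 2.07 and 2.56 CPM with ammonium against 2.26, 3.10 and 2.85 CPM with water, which overlapped, and no peak was listed.

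The next with all 6 libraries was pp_57729, with 15.1, 24.6 and 17.6 CPM in the ammonium IP against 91.7, 57.7 and 62.8 CPM in the water IP. Its log2 fold change was -1.66 (SE 0.23; edgeR adjusted p = 0.336) and -1.52 (SE 0.22) without replicate 1. It belonged to the IP-low class. Its input values overlapped, at 144, 194 and 140.04 CPM with ammonium and 302, 465 and 131 CPM with water, where water input replicate 3 was the lowest. In the authors' deposited table for water it had a peak at positions 862 to 958 with a fold enrichment of 25.4.

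Without water replicate 1 the second was pp_228506, also first in the lower direction at 100 CPM or more. It had 251, 260 and 236 CPM in the ammonium IP, against 418, 519 and 512 CPM in the water IP, where replicate 1 lay nearest to the ammonium libraries. The log2 fold change was -0.92 (SE 0.13; edgeR adjusted p = 0.590) without replicate 1 and -0.75 (SE 0.18; edgeR adjusted p = 0.464) with it. The adjacent pp_228507 was first in that direction at 100 CPM or more with all 6 libraries. Its IP values were near-equal, at 256, 261 and 240.1 CPM with ammonium against 430.2, 516 and 521 CPM with water. Whether these are separate transcripts is uncertain, since their reads may be shared. Neither had a listed peak, and the input of pp_228506 ran from 42.2 to 61.4 CPM with ammonium and from 33.5 to 112 CPM with water. The input of pp_228507 was lower in every library, from 21.5 to 31.6 CPM with ammonium and from 15.5 to 55.8 CPM with water. The near-equality was thus limited to the IP.

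Among transcripts with a peak in both lists, the lowest p in the lower direction belonged to pp_25579 with all 6 libraries and to pp_56814 without water replicate 1. The first had 16.1, 12.2 and 12.6 CPM in the ammonium IP, against 29.8, 30.8 and 36.4 CPM in the water IP (log2 fold change -1.03, SE 0.21; edgeR adjusted p = 0.464), without overlap. The second had 48.8, 46.0 and 47.5 CPM in the ammonium IP, against 65.6, 100.9 and 96.4 CPM in the water IP. Here water replicate 1 lay between the ammonium libraries and the other water libraries, and the log2 fold change was -0.68 (SE 0.22) with it and -0.92 (SE 0.14; edgeR adjusted p = 0.590) without it. In the authors' deposited tables the peak of pp_56814 lay at positions 497 to 794 in both lists, with a fold enrichment of 249 with ammonium and 830 with water.

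**Figure D5:**
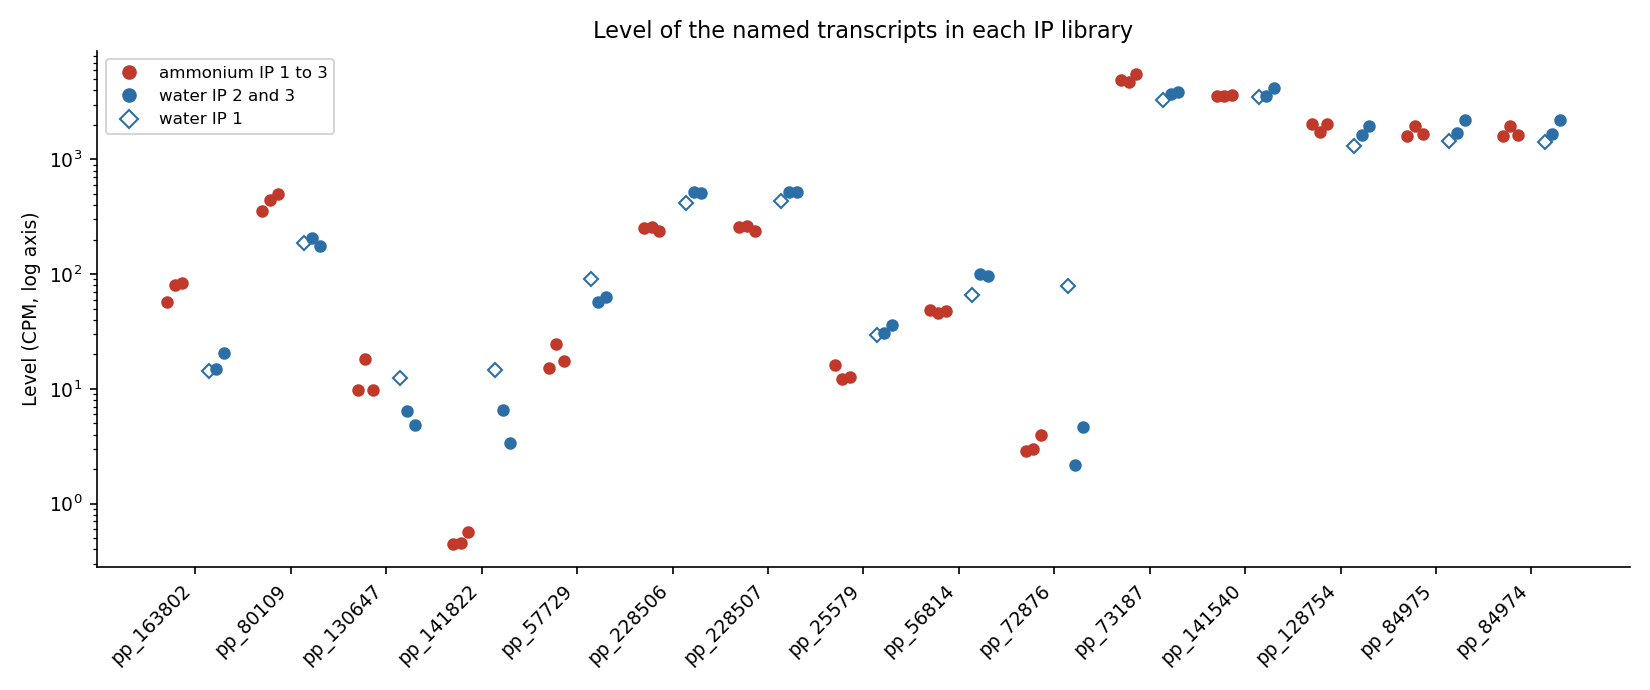
Level in CPM (y axis, log scale) of each named transcript in each IP library, with the ammonium libraries (red) left of the water libraries (blue) and water IP replicate 1 as an open diamond. For pp_163802 and pp_80109 all ammonium points lie above all water points; for pp_72876 the diamond at 78.7 CPM stands alone above the other 5 libraries.

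The next pair of transcripts was chosen for the largest move when water replicate 1 was left out. A large move was thus set by the choice and says nothing about other transcripts. Of the transcripts with a mean of 10 CPM or more that were lower at an unadjusted p under 0.05, pp_72876 moved most. It reached that mean only through water replicate 1, since every other IP library lay at 4.69 CPM or less. It had 2.87, 3.01 and 4.00 CPM in the ammonium IP, and 78.7, 2.19 and 4.69 CPM in water replicates 1, 2 and 3. The log2 fold change was -2.80 (SE 1.01) with replicate 1 and 0.067 (SE 0.38) without it. Its inputs held 74.0 to 87.2 CPM with ammonium and 61.1 to 72.9 CPM with water, so replicate 1 of the water IP stood at the level of the inputs. In the higher direction pp_130647 moved most. It had 9.87, 18.2 and 9.78 CPM in the ammonium IP and 12.6, 6.46 and 4.83 CPM in water replicates 1, 2 and 3, with a log2 fold change of 0.91 (SE 0.35) with replicate 1 and 1.30 (SE 0.33) without it, when the groups no longer overlapped.

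The 5 most abundant precipitated transcripts differed little between the groups, with 1 exception. The highest, pp_73187, had 4965, 4697 and 5534 CPM in the ammonium IP, against 3317, 3751 and 3870 CPM in the water IP, without overlap. Its log2 fold change was 0.68 (SE 0.17; edgeR adjusted p = 0.464) and 0.54 (SE 0.12; edgeR adjusted p = 0.590) without water replicate 1, and its inputs held 485 to 507 CPM with ammonium and 409 to 461 CPM with water. In the authors' deposited tables its peak at positions 193 to 530 had a fold enrichment of 514 with ammonium and 590 with water.

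The other abundant transcripts overlapped between the groups. For pp_141540 the values were 3606, 3595 and 3673 CPM in the ammonium IP and 3479, 3592 and 4203 CPM in the water IP (log2 fold change 0.16, SE 0.17, and 0.029, SE 0.12, without water replicate 1). For pp_128754 they were 2046, 1727 and 2034 CPM against 1321, 1618 and 1950.3 CPM with water (log2 fold change 0.45, SE 0.21, and 0.25, SE 0.14, without water replicate 1). The adjacent pp_84975 and pp_84974, which could share reads, had 1607 to 1960 and 1591 to 1955 CPM with ammonium and 1441 to 2209 and 1430.0 to 2209 CPM with water, with log2 fold changes of 0.17 each (SE 0.21). The sign of these last values and of that of pp_141540 turned with library size scaling, and those of pp_84975 and pp_84974 also without water replicate 1.

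Few transcripts met a strict condition for presence in the IP of 1 treatment alone. It asked for at least 10 reads in each library of 1 group and 0 in each of the other. Of the 212529 transcripts with a read in these libraries, those with few reads could not meet it, so no share is given. A single transcript, pp_22736, had at least 10 reads in each ammonium IP library (11, 29 and 16) and 0 in each water IP library. It was at least 5.36-fold higher in the ammonium IP, taking 3 counts per library as the floor, and the inputs held 4 to 22 reads with ammonium and 8 to 16 with water. In the other direction 9 transcripts had at least 10 reads in each water IP library and 0 in each ammonium IP library. Of these, pp_201956, pp_231280 and pp_250220 had 0 reads in every input, and the others had input reads. The one with most reads, chosen after its values were seen, was pp_36127, with 59, 26 and 46 reads in the water IP, at least 16.5-fold lower in the ammonium IP by the same floor. Its inputs held 0, 2 and 7 reads with ammonium against 56, 27 and 64 with water. Without water replicate 1, 203402 transcripts had a read. The same condition was then met by 12 transcripts for the ammonium IP and by 46 for the water IP. These floors cover counting error only.

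Some transcripts at an unadjusted p under 0.05 had adjacent ID numbers. With all 6 libraries, 52.4% of the 5244 higher and 33.2% of the 5187 lower transcripts had a direct neighbour in number in the same list; without water replicate 1 these were 44.7% of 3819 and 24.3% of 5111. Of all tested transcripts, 83.2% and 83.5% had a tested direct neighbour in the same fits, so adjacent IDs were common throughout the table and nothing is read from the shares of the lists. The adjacent pp_228506 and pp_228507 had near-equal values in the IP but not in the inputs. Whether the numbers of transcripts given above count an RNA more than once was not tested.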

How the data were processed

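The table deposited by the authors holds whole-number read counts per transcript ID, 1 column per library, without normalization; columns were matched to samples by the names in their descriptions. The submitters' processing notes name bcl2fastq and BWA; versions, reference, strandedness, the treatment of reads with several matches and removal of duplicates: not given in the sources used here. The authors deposited 1 peak list per treatment, in which each peak has a fold enrichment (ratio) and a p-value per the file headers; these lists have no replicates.

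The tests used edgeR 4.0.16 under R 4.3.3 (TMM, minimum count 10, minimum total 15, robust quasi-likelihood F test, two-sided, Benjamini-Hochberg adjustment over all transcripts tested, no covariate), once with 6 and once with 5 IP libraries. SE is the fold change over the root of F. The fit was run on simulated data to check its fold changes only. The simulation gave every transcript the same spread, smaller than that of the data, so it does not bear on the number called. CPM uses library totals, also where groups are said to overlap or not. IP/input classes add 0.05 CPM to both means and leave out transcripts under 0.1 CPM in both. Correlations with the inputs use log2(CPM + 0.5). Spreads and distances within a group, and deviations of same-numbered libraries, use the same measure with CPM first divided by the TMM factor. Alternatives were DESeq2 1.42.0, voom of limma 3.58.1, other scalings and filters, a replicate block, a fit with the inputs, and omission of each library. No library pair was alike within sampling noise: chi-square per degree of freedom lay between 13.2 and 51.4. The p-values measure the spread between libraries of a group.

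Named transcripts are, per fit and direction, the 2 of smallest p (1 CPM or more, groups without overlap, 1 per 10 neighbouring IDs), 1 each at 100 CPM or more and with peaks in both lists, the 2 that moved most without water IP replicate 1, and the 5 most abundant. Members, classes and tests were chosen with earlier results of these data known; the IP/input classes were added after seeing the files.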

Additional observations from a re-analysis of the deposited data

How the results depend on the processing

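No replicate block entered the main fits, because the labels do not say that a number marks a shared run, and deviations of same-numbered IP libraries correlated at 0.11, 0.12 and 0.0060 for replicates 1, 2 and 3. Replicates 1 and 2 of each group correlated best with their own number, and replicate 3 of each group did not. With the replicate block 8 transcripts were called with 6 libraries and 22 with 5, where 4392 had an unadjusted p under 0.05. In that fit of 5, ammonium replicate 1 had no water library of its number. The contrast thus rested on replicates 2 and 3 alone. The number called with 6 libraries was 316 with DESeq2, 4 with voom and sample weights, 1863 without a filter and 879 in the fit with all inputs. With 5 libraries it was 151 with DESeq2, 795 without a filter and 5 with all inputs. Numbers at an unadjusted p under 0.05 were 19658 without a filter, 6575 with 50 reads in 3 libraries (fewer transcripts tested) and 28491 with all inputs for 6 libraries, and 16138, 5071 and 21306 for 5. Omission of 1 library gave 0 to 34 calls and 5933 to 20472 transcripts at an unadjusted p under 0.05 with 6 libraries, and 0 to 2167 calls and 4301 to 19022 with 5. For the other changes the cause was not tested.

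With library size scaling the median log2 fold changes were -0.68, -0.43, 0.060 and 0.14 from the lowest to the highest IP level, 0.038 for peaks in both lists, 0.0059 for the ammonium list only, -0.52 for the water list only, -0.50 without a peak and -0.18 between the ratio classes. With classes of input level they were -0.35, 0.0052 and -0.088 under 1 CPM, at 10 to 100 CPM and at 100 CPM or more, and with the filter of 50 reads 0.16 for peaks in both lists. Omission of 1 library gave -0.66 to -0.32, -0.28 to -0.033, 0.20 to 0.32 and 0.24 to 0.42 by IP level, 0.16 to 0.31 for peaks in both lists, 0.17 to 0.32 for the ammonium list only, -0.38 to -0.16 for the water list only, -0.44 to -0.10 without a peak, -1.10 to -0.10 for IP-low, -0.57 to 0.11 for IP-high and -0.073 to 0.073 between. The difference in transcripts at 1 CPM or more stayed between -10589 and -6097, and that of the 100 most abundant between 0.389 and 1.11 percentage points.

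Of the named transcripts, pp_141540, pp_84975 and pp_84974 had log2 fold changes of -0.058, -0.035 and -0.036 with library size scaling. Omission of 1 library gave -0.026 to 0.32 for pp_84975, -0.028 to 0.33 for pp_84974 and -3.44 to 0.067 for pp_72876. The other 11 kept their sign in every setting in which they were fitted. With DESeq2, pp_163802, pp_80109 and pp_141822 passed in both fits. The same held for edgeR without a filter. In edgeR with all inputs, pp_163802 and pp_141822 passed in both fits and pp_80109 with 6 libraries. Without water replicate 2, pp_163802 (edgeR adjusted p = 0.0387) and pp_141822 (edgeR adjusted p = 0.0416) passed as well. Other named transcripts also passed in some settings. With the replicate block in edgeR, pp_163802 passed in both (adjusted p = 0.00344 with 6 libraries and 0.00150 with 5), pp_141822 with 6 (adjusted p = 0.0272; 0.229 with 5) and pp_80109 with 5 (adjusted p = 0.0214; 0.103 with 6). The median SE was 0.74 under 1 CPM and 0.19 at 100 CPM or more; the part of counting depth in it was not tested.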
